A study of Mus musculus with 3 samples.

Results

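Integrin α8β1, its ligand nephronectin and the proteins of the Fraser complex were followed in E12.5 mouse kidney rudiments that lack Fgfrl1, a cell surface receptor that binds fibroblast growth factors. The 7 genes are Itga8 and Itgb1 for the integrin, Npnt for nephronectin, and Fras1, Frem1, Frem2 and Grip1 for the Fraser complex. Members were all probes, other than control probes, that carry 1 of these gene names in the array files. These 7 of 27745 gene names came with 16 of 41174 probes, on 25 of 43379 spots: 3 probes each for Itga8, Itgb1, Npnt and Grip1, 2 for Frem2, and 1 each for Fras1 and Frem1.

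The RNA pools compared were all from C57BL/6 embryos at E12.5, either from Fgfrl1-/- rudiments or from rudiments labelled wt (wildtype). Each pool held 6 to 9 rudiments, and 600 ng of RNA per pool was labelled. On each of 3 Agilent arrays, 1 Fgfrl1-/- pool, labelled with Cy3, was hybridized together with 1 wildtype pool, labelled with Cy5. No array had the dyes swapped, so a dye effect and a genotype effect cannot be told apart. The knock-out is a targeted inactivation of the gene, and the labels name no Cre or transgene. RNA came from whole rudiments, so fewer cells of a type and less RNA per cell cannot be told apart.

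The value given for a probe is its log2 ratio, Fgfrl1-/- over wildtype, after correction for background and loess normalization within the array, so that a negative value means a lower signal in the Fgfrl1-/- pool. A probe passed the test at a limma p below 0.05 after Benjamini-Hochberg adjustment over all 41174 probes. The replicates are pools, and p-values measure the spread between 3 arrays. Normalized signals were not scaled between arrays. Whether the pools of different arrays overlap therefore also depends on how bright each array was. Fgfrl1 itself, the check of the labels, had log2 ratios of -1.21, -1.51 and -1.83 on arrays 1, 2 and 3 (adjusted p = 0.0332). The position of its probe relative to the inactivated part of the gene was not determined here. Array 1 lay alone on a slide, and arrays 2 and 3 shared another. Array 1 stood apart from the others: over all probes its log2 ratios had r = 0.11 with those of array 2 and r = 0.22 with those of array 3, whereas r was 0.71 between arrays 2 and 3. On array 1 the knock-out channel had 80.2% of probes well above background, against 60.9% in the wildtype channel, while the other 4 channels lay between 57.1% and 65%.

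Integrins are receptors made of 1 α and 1 β subunit that bind proteins of the extracellular matrix. In the early kidney, integrin α8β1 sits on the metanephric mesenchyme. Nephronectin is laid down in the basement membrane of the ureteric bud and is the ligand that α8β1 needs there for the mesenchyme to keep up Gdnf, the growth factor that draws out the ureteric bud. Fras1 and Frem2 are very large transmembrane proteins that, together with the secreted Frem1, form the Fraser complex in the basement membrane under epithelia. Grip1 is a PDZ-domain scaffold inside epithelial cells that brings Fras1 to the basal side. Loss of Itga8, of Npnt or of Fraser complex genes in mice can leave the animal without kidneys.

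3 of the probes are shown, because they join distant bases of the genome or overlap another probe. Probes 2 and 3 of Npnt are thus not independent of each other. Itgb1 probe 3 and Grip1 probe 1 also join distant bases and are not shown. Probe 3 of Itga8 and probe 3 of Npnt each join bases that lie far apart in the genome, 60 bases of probe over 4851 bp and 1302 bp of mm8. The capitals mark the 19 bases that probes 2 and 3 of Npnt have in common. All are on the minus strand and are written 5′ to 3′.
Itga8 probe 3, chr2:12073365-12078215: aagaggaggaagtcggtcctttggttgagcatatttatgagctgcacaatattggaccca
Npnt probe 2, chr3:132821741-132821800: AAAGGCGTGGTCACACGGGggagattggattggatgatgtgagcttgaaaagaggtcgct
Npnt probe 3, chr3:132821782-132823083: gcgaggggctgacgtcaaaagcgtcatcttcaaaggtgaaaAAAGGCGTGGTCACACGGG

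Itga8 was lower in the Fgfrl1-/- pools, and it was the only gene of the 7 with a probe past the test. Of the 16 member probes, 2 were called lower, both of Itga8, and 0 were called higher, where 0.398% of all probes were called lower and 0.289% higher. At an unadjusted p below 0.05, 8 of the 16 probes passed, against 15.9% of all probes. They went both ways. Lower were every Itga8 probe, Npnt probe 3 and Frem2 probe 2, and higher were Itgb1 probe 1, Fras1 and Grip1 probe 1. The study had selected Itga8 from these same arrays, so its fall here is not independent evidence. It also reported lower Itga8 by qPCR, a separate assay, at E12.5 and at other embryonic ages.

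**Figure D1:**
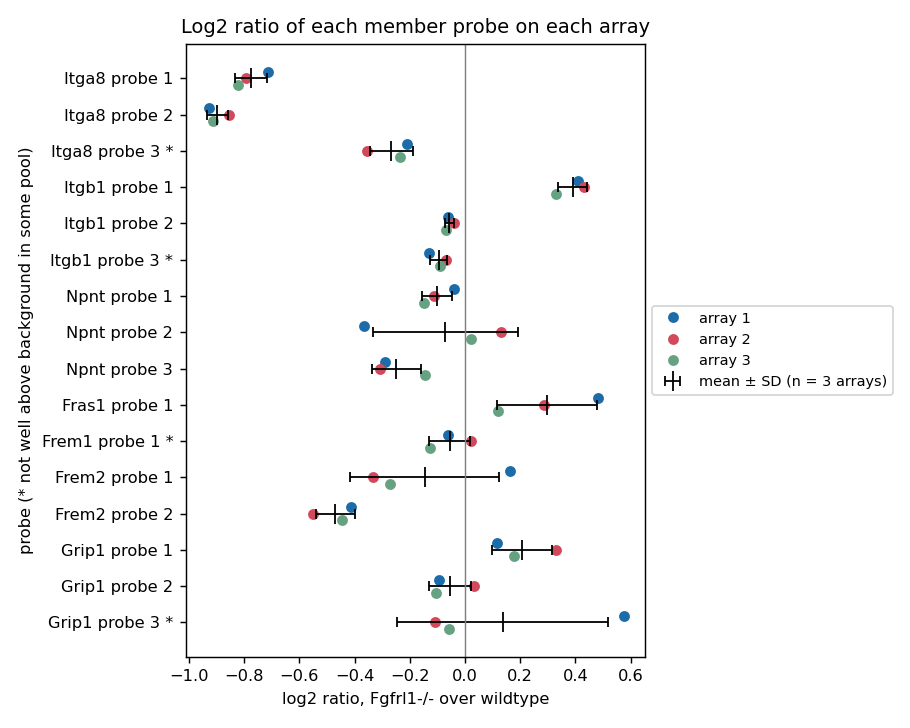
Log2 ratio of Fgfrl1-/- over wildtype (x axis) for the 16 probes of the 7 genes (y axis), with 1 point per array and the mean ± SD over 3 arrays in black. A star marks a probe that was not well above background in at least 1 pool. Probes 1 and 2 of Itga8 lie between -0.93 and -0.71 on every array, to the left of all other probes.

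Probe 1 of Itga8 (chr2:12024688-12024747) gave a normalized log2 signal of 10.37, 10.49 and 10.76 in the Fgfrl1-/- pools of arrays 1, 2 and 3, and of 11.08, 11.29 and 11.59 in the wildtype pools. On each array the Fgfrl1-/- pool was the dimmer one. The log2 ratio was -0.78 ± 0.057 (SD, n = 3 arrays), 1.71-fold lower, with a 95% interval of -0.95 to -0.60 and an adjusted p of 0.0346. Probe 2 (chr2:12024860-12024919) lies 112 bases from probe 1 and gave 9.74, 10.34 and 10.53 in the Fgfrl1-/- pools against 10.67, 11.20 and 11.44 in the wildtype pools. Again each Fgfrl1-/- pool was dimmer than its partner. Its log2 ratio was -0.90 ± 0.039 (SD, n = 3), 1.86-fold lower, with an interval of -1.07 to -0.73 and an adjusted p of 0.0313.

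Probe 3 of Itga8, whose sequence is printed above, lies 48445 bases from probe 2 and was much dimmer. Its raw median signal was 46.5, 49 and 49 in the Fgfrl1-/- pools, over a local background of 18.5, 30.5 and 24.5, and 82.5, 115 and 97 in the wildtype pools, over 58.5, 45 and 44.5. It was well above background in 2 of 3 Fgfrl1-/- pools and in all wildtype pools. The log2 ratio of probe 3 was -0.27 ± 0.078 (SD, n = 3) and did not pass (adjusted p = 0.167), although it was negative on every array. The offset of 50 that is added to each signal draws the ratio of a dim probe towards 0 by construction. With an offset of 0 the ratio of probe 3 was -0.60, and with the ratio of the scanner software -1.01, still short of the threshold (adjusted p = 0.383 and 0.2).

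The fall of Itga8 had a like size on each array, but its calls did not hold in every fit. Without array 2 the adjusted p was 0.323 for probe 1 and 0.293 for probe 2, without array 3 it was 0.471 for both, and without array 1 it was 2.19e-05 and 1.21e-05. The fit without array 1 kept arrays 2 and 3, which shared a slide, and called 18.6% of all probes. Neither probe passed in the deposited log2 table (adjusted p = 0.056 and 0.0502), with an offset of 0 (0.381 for both) or with the ratio of the scanner software (0.158 for both). These losses were general: of all 41174 probes, 0 passed without array 2, without array 3, with an offset of 0 or with the scanner software's ratio, and 36 passed in the deposited table. The log2 ratio itself stayed between -1.07 and -0.75 for probe 1 over 14 alternatives and between -1.18 and -0.86 for probe 2 over 13, and 6 alternatives kept each call.

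Itgb1, the β1 chain that pairs with α8 and with many other α chains, was read by 3 probes, and none passed the test. Probe 1 (chr8:131618682-131618741) was printed on 10 spots and gave normalized log2 signals of 11.07, 11.23 and 11.57 in the Fgfrl1-/- pools against 10.66, 10.80 and 11.24 in the wildtype pools. On each array the Fgfrl1-/- pool was the brighter one, but the ranges of the groups overlapped. The log2 ratio was 0.39 ± 0.053 (SD, n = 3, adjusted p = 0.0867). All 10 spots of this probe together varied with an SD of 0.18, 0.058 and 0.055 on arrays 1, 2 and 3. On array 1, 2 of the 10 spots carried an outlier flag. They count in this SD but were left out of the log2 ratio.

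The β1 probes did not give the same picture. Probe 2 of Itgb1 (chr8:131608539-131608598) had log2 ratios of -0.063, -0.038 and -0.068, a mean of -0.056 ± 0.016 (SD, n = 3, adjusted p = 0.771). Its 95% interval, -0.22 to 0.11, does not reach that of probe 1, which ran from 0.22 to 0.56. Probe 3 of Itgb1 (chr8:131613121-131618139), which joins distant bases, was not well above background in any pool, with raw signals of 24 to 31 in the Fgfrl1-/- pools and 52 to 59.5 in the wildtype pools. With median centring in place of loess the log2 ratio of probe 1 fell to 0.085. Without array 1, probe 1 passed the test at 0.38 (adjusted p = 0.00364), but 18.6% of all probes were then called. Arrays 2 and 3, left in that fit, shared a slide. With 1 mean value per slide probe 1 did not pass (adjusted p = 0.51).

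**Figure D2:**
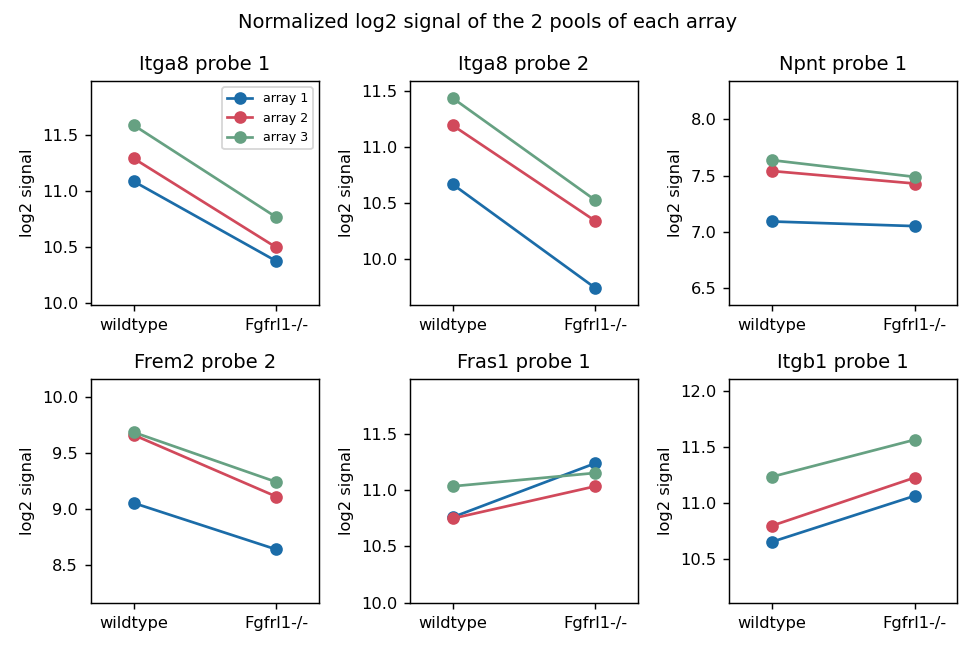
Normalized log2 signal (y axis) of the wildtype and the Fgfrl1-/- pool (x axis) of each array, for 6 probes, with 1 line per array. The scale differs between panels in position but not in span. Both Itga8 panels fall steeply on every array, the Npnt panel is nearly level, Frem2 probe 2 falls, and the panels of Fras1 and Itgb1 probe 1 rise.

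Npnt, the ligand, gave no call on any of its probes. The brightest, probe 1 (chr3:132821061-132821120), had normalized log2 signals of 7.05, 7.43 and 7.49 in the Fgfrl1-/- pools against 7.09, 7.54 and 7.64 in the wildtype pools. The groups overlapped, and each Fgfrl1-/- pool was slightly dimmer than its partner. The log2 ratio of -0.10 ± 0.055 (SD, n = 3, adjusted p = 0.575) had a 95% interval of -0.28 to 0.074, which does not reach the interval of either bright Itga8 probe.

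Probes 2 and 3 of Npnt share 19 bases, printed in capitals with the sequences, but their ratios had the same sign only on array 1. Probe 2 of Npnt had log2 ratios of -0.37, 0.13 and 0.022, a mean of -0.071 ± 0.26 (SD, n = 3, adjusted p = 0.836). Its negative mean came from array 1, without which it was 0.076. Probe 3 of Npnt had log2 ratios of -0.29, -0.31 and -0.15, a mean of -0.25 ± 0.089 (SD, n = 3, adjusted p = 0.194), with an interval of -0.43 to -0.063. It was the dimmest of the Npnt probes, at raw signals of 60, 42 and 57 in the Fgfrl1-/- pools and 100, 95 and 105 in the wildtype pools, over backgrounds of 17.5 to 29 and 46 to 62. As for Itga8 probe 3, its ratio grew to -0.57 with an offset of 0 and to -0.44 with the scanner software, neither past the threshold (adjusted p = 0.387 and 0.584). Over all alternatives no Npnt probe passed, and the lowest adjusted p was 0.0561, for probe 3 without array 1.

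No probe of the Fraser complex passed the test. Ratios lay above 0 on every array for Fras1 and Grip1 probe 1, and under 0 on every array for Frem2 probe 2. Probe 1 of Fras1 (chr5:97024501-97024560) was bright, with normalized log2 signals of 11.24, 11.04 and 11.16 in the Fgfrl1-/- pools against 10.76, 10.75 and 11.04 in the wildtype pools. Its log2 ratios of 0.48, 0.29 and 0.12 gave a mean of 0.30 ± 0.18 (SD, n = 3, adjusted p = 0.211). The positive value depended on the normalization, since it was -0.0046 when arrays were centred on the median, a setting that moved the median of all probes to 0.042 from 0.0037.

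Frem2 was read by 2 probes that differed on array 1. Probe 2 (chr3:53604035-53604094) gave 8.64, 9.11 and 9.24 in the Fgfrl1-/- pools against 9.05, 9.66 and 9.69 in the wildtype pools, so each Fgfrl1-/- pool was the dimmer one of its array while the ranges overlapped. Its log2 ratio of -0.47 ± 0.071 (SD, n = 3), with an interval of -0.65 to -0.29, missed the threshold (adjusted p = 0.0671). Probe 1 of Frem2 (chr3:53602270-53602329) had log2 ratios of 0.16, -0.33 and -0.27, a mean of -0.15 ± 0.27 (SD, n = 3, adjusted p = 0.63). Without array 1 both probes passed, at -0.30 (adjusted p = 0.0126) for probe 1 and -0.50 (adjusted p = 0.000688) for probe 2, but 18.6% of all probes were then called.

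The probe of Frem1 (chr4:82410034-82410093) was not well above background in any pool. Its raw signals were 22, 22 and 19.5 in the Fgfrl1-/- pools, over backgrounds of 17, 18 and 20, and 58.5, 46 and 47 in the wildtype pools, over 56, 45 and 44. These signals lie within a few units of their background, and no fold is given.

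Grip1, the scaffold, showed no call on its 3 probes. Probe 1 (chr10:119475806-119478377), which joins distant bases, had log2 ratios of 0.11, 0.33 and 0.18, a mean of 0.21 ± 0.11 (SD, n = 3, adjusted p = 0.283), and -0.00030 with median centring. Probe 2 (chr10:119479782-119479841) had a mean of -0.055 ± 0.077 (SD, n = 3, adjusted p = 0.795). Probe 3 (chr10:119413334-119413393) had 0.58 on array 1 but -0.11 and -0.060 on the others, a mean of 0.14 ± 0.38 (SD, n = 3, adjusted p = 0.747). Probe 3 was dim, with raw signals of 89, 38 and 44.5 in the Fgfrl1-/- pools and 71 in each wildtype pool, and was well above background in 2 pools of each genotype.

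**Figure D3:**
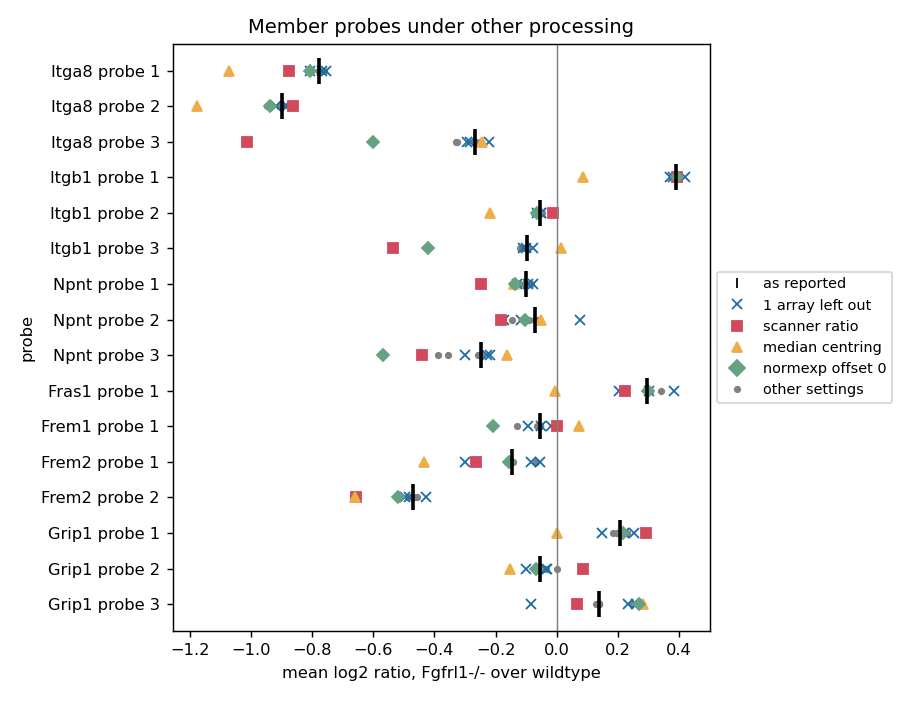
Mean log2 ratio of Fgfrl1-/- over wildtype (x axis) of each probe (y axis) as reported (black bar) and when 1 step of the processing was changed (symbols). Itga8 probes 1 and 2 stay under -0.75 throughout, the dim Itga8 probe 3 moves to -1.01 with the scanner ratio, and Fras1 and Grip1 probe 1 move to about 0 with median centring.

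The receptor was then set against the matrix proteins directly, by subtracting the log2 ratio of Itga8 probe 1 from that of each other probe on the same array and testing this difference. Only 0.24% of all probes had a lower ratio than Itga8 probe 1, so an unchanged probe passes too. Of all probes, 98.8% were above it past this test. Npnt probe 1 lay above Itga8 by 0.67, 0.68 and 0.67 on arrays 1, 2 and 3, a mean difference of 0.68 ± 0.0068 (SD, n = 3, adjusted p = 0.000216) with a 95% interval of 0.49 to 0.86. The differences of the other Npnt probes were 0.71 (adjusted p = 0.00146) and 0.53 (adjusted p = 0.000968). Each Npnt probe thus lay above Itga8 probe 1 on every array. This does not extend to the dim Itga8 probe 3, whose mean of -0.27 was close to the -0.25 of Npnt probe 3, a pair whose difference was not tested.

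Fras1 exceeded Itga8 by 1.07 (adjusted p = 2e-04) with an interval of 0.86 to 1.28, and Itgb1 probe 1 by 1.17 (adjusted p = 2e-04) with 0.98 to 1.36. The difference was smallest for Frem2 probe 2, at 0.31 (adjusted p = 0.00812) with an interval of 0.11 to 0.50, while Frem2 probe 1 differed by 0.63 (adjusted p = 0.000946). Under the other settings Frem2 probe 2 kept its call in 7 of 12, and Npnt probe 1, Fras1 and Itgb1 probe 1 in 13 of 13 each. For the 3 probes of Grip1 the differences were 0.98, 0.72 and 0.91.

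Altogether 14 of the 15 other member probes had a higher ratio than Itga8 probe 1 past the test, and the same held for 98.8% of all probes (98.9% in either direction). The count is thus near the background and says nothing particular about these members. The exception was Itga8 probe 2, which differed by -0.12 (adjusted p = 0.187) with an interval of -0.32 to 0.076. Itga8 probe 3 differed by 0.51 (adjusted p = 0.000749), but by -0.14 with the ratio of the scanner software. With Itga8 probe 2 as the reference, 14 of 15 were again past the test.

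**Figure D4:**
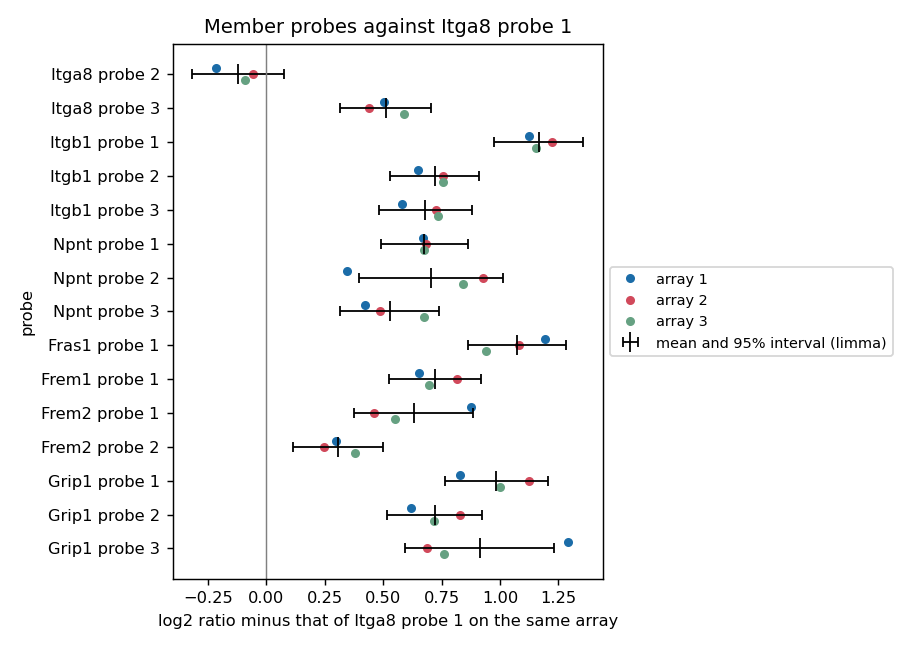
Log2 ratio of each member probe minus that of Itga8 probe 1 on the same array (x axis), with 1 point per array and limma's mean and 95% interval in black. The interval of Itga8 probe 2 spans 0, and the intervals of the other probes, from Frem2 probe 2 at 0.31 to Itgb1 probe 1 at 1.17, do not.

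Markers of the cell types in the rudiment were read beside these values. For each gene list, medians are over genes, each at its brightest probe, and levels are means of log2 signals per pool. Calls in the lists stand beside 0.398% of all probes called lower and 0.289% called higher. The 12 cap mesenchyme markers, the list to which Itga8 belongs, were all well above background in all pools. Without Itga8, the 11 others had a median log2 ratio of -0.11 and a mean level of 10.30 to 10.78 in the Fgfrl1-/- pools against 10.58 to 10.98 in the wildtype pools. Of these, only Cited1 was called lower, at -0.78 ± 0.19 (SD, n = 3, adjusted p = 0.0442), and 0 were called higher. Six2, a defining transcription factor of the cap, had a log2 ratio of -0.046 ± 0.24 (SD, n = 3, adjusted p = 0.897).

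Of 15 ureteric epithelium markers on the array, 14 were well above background in all pools and 1, Ret, in none. Their median log2 ratio was 0.30, with levels of 9.65 to 10.16 in the Fgfrl1-/- pools against 9.48 to 10.07 in the wildtype pools. Of these genes 2 were called lower, Wnt11 and Slco4c1, and 1 was called higher, Krt8 on 1 of its 2 probes. Of all probes, 0.398% were called lower and 0.289% higher. Renal vesicle markers, genes of the first epithelial nephron stage, had a median of -1.18 over 10 genes with 6 called lower, at 7.98 to 8.15 against 9.18 to 9.31. Most of this list (Wnt4, Fgf8, Lhx1, Pax8, Jag1, Dll1, Hes5 and Bmp2) had been selected as reduced by the study from these same arrays. Its low median and calls are thus not independent evidence. Stroma markers had a median of 0.39 over 12 genes, with 3 called higher, at 12.55 to 12.90 against 11.99 to 12.63. The called genes were Pdgfra, Col1a1 and Foxd1, the last only on its dimmer probe (adjusted p = 0.057 on the brighter). The study had picked Col1a1 as raised from these same arrays, and its qPCR at E12.5 did not show the rise. Macrophage markers had a median of 0.44 over 7 genes with 0 called, at 8.25 to 8.67 against 7.99 to 8.20. Endothelial, erythroid, neural, muscle and adrenal or gonad markers had 0 called and medians from -0.14 to 0.043. The part of these shifts in the values of Itga8, Npnt and the Fraser genes was not tested.

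Of the other α subunits, 16 of 17 listed genes were found, on 38 probes, of which 0 were called lower and 1 higher, with a median over genes of 0.031, where 0.687% of all probes were called in either direction. The called probe was of Itga4, a subunit of receptors for fibronectin and Vcam1, with log2 ratios of 0.69, 0.65 and 0.60, a mean of 0.65 ± 0.045 (SD, n = 3, adjusted p = 0.0408). The other 5 probes of Itga4 lay between -0.028 and 0.27, and none passed. Itga1 at -0.23 on 1 of its probes, Itga11 at 0.22, Itga9 at 0.17 and Itgal at -0.15 had the largest values after it among probes well above background, and none of them passed.

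For the other β subunits, 7 of 7 genes were found on 14 probes, with 0 called and a median of 0.15. The largest values among probes well above background in all pools were 0.49 ± 0.38 for Itgb8, 0.38 ± 0.057 for Itgb5 (adjusted p = 0.0896), 0.20 ± 0.098 for Itgb2 and 0.14 ± 0.28 for Itgb7 (SD, n = 3 arrays each). Itgb3, chosen after its values were seen, had 1.73 on array 1 but -0.82 and -0.73 on arrays 2 and 3 on its brighter probe. Its other probe, also well above background in all pools, had 0.070, -0.021 and -0.036, so the probes of Itgb3 differed.

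Other matrix ligands with an RGD motif that α8β1 can bind were present on 10 probes of 5 of 5 listed genes, with 0 called and a median of 0.14. Fn1, which encodes fibronectin, had log2 ratios of 0.47, 0.98 and 0.72 on its brightest probe, a mean of 0.72 ± 0.26 (SD, n = 3, adjusted p = 0.0694). The other Fn1 probes gave means of 0.72, 0.53 and -0.029. Spp1, which encodes osteopontin, had 0.54 ± 0.15 (SD, n = 3, adjusted p = 0.0718), Tnc, tenascin C, 0.14 ± 0.16 on its brightest probe, and Egfl6 0.10 ± 0.15 (SD, n = 3 each). Vtn, vitronectin, the remaining gene of the list and added after its values were seen, had negative values on every array, -0.32, -0.23 and -0.066, with a mean of -0.21 ± 0.13 (SD, n = 3, adjusted p = 0.308), on a probe that was well above background in 1 of 3 Fgfrl1-/- pools and in all wildtype pools.

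Among relatives and partners of the Fraser complex, 2 of 3 listed genes were found and neither was called. Vwa2, whose product AMACO is a basement membrane protein that binds Fras1 and Frem2, had log2 ratios of 0.049, 0.69 and 0.57, a mean of 0.44 ± 0.34 (SD, n = 3, adjusted p = 0.212). Grip2, the paralog of Grip1, had 0.041 ± 0.096 (SD, n = 3) on a dim probe.

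Proteins that link integrins to the cytoskeleton inside the cell were found for 13 of 16 listed genes, on 30 probes, with 0 called and a median of 0.034. The largest values among probes well above background were 0.40 ± 0.77 for Tns1, 0.36 ± 0.24 for Parva, 0.32 ± 0.046 for Ilk, the integrin-linked kinase (adjusted p = 0.109), and 0.29 ± 0.061 for Tln2 (SD, n = 3 arrays each). The probes of a gene differed. Other Tns1 probes gave 0.29 (the brightest), 0.14, -0.024 and -0.075. The other Parva probe gave 0.036, and the other Tln2 probes 0.14 (the brightest) and -0.024. All 7 genes of the Gdnf axis were found on 9 probes, with a median of -0.76. Of these probes 4 were called lower and 0 higher, where 0.398% of all probes were called lower. The study had listed Gdnf, Spry1 and Etv4 as reduced from these same arrays, and it places Spry1 and Etv4 in Fgf signaling. A link of these values to the fall of Itga8 was not tested. The called genes were Gdnf at -0.83 ± 0.18 (adjusted p = 0.0421), Spry1 at -0.94 ± 0.15, Etv4 at -1.05 ± 0.27 and Wnt11 at -0.76 ± 0.13 (SD, n = 3 arrays each). Not called were Etv5, at -0.51 and -0.42 on its probes, and Gfra1, at -0.45 and -0.22. Ret was not called either, on a probe not well above background in any pool.

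**Figure D5:**
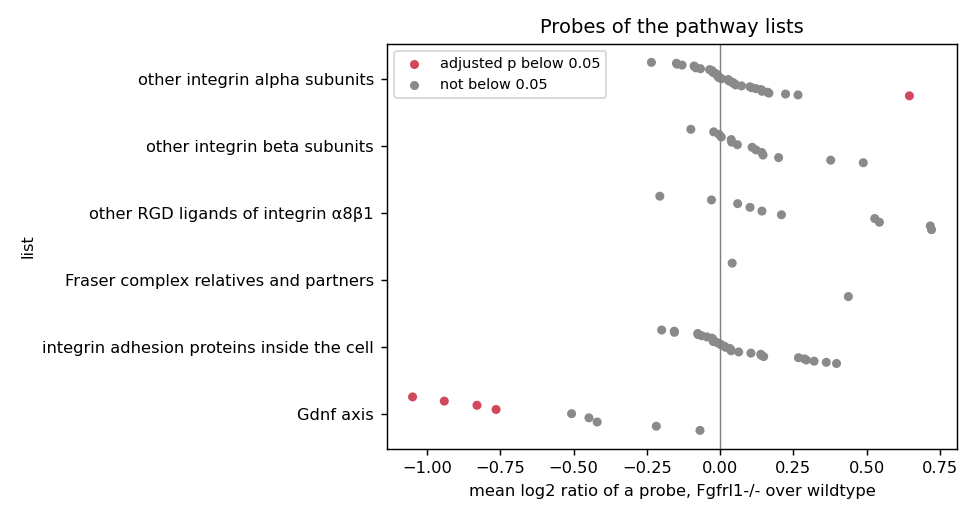
Mean log2 ratio over 3 arrays, Fgfrl1-/- over wildtype (x axis), of every probe of the integrin, ligand, Fraser, adhesion and Gdnf lists (y axis), with 1 point per probe and red points for an adjusted p below 0.05. The only red points are 4 in the Gdnf axis, all negative, and 1 of Itga4 at 0.65, while most integrin probes lie around 0.

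The genes whose log2 ratios lay nearest to those of Itga8 probe 1 on all 3 arrays were sought among 22748 probes well above background in all pools. Likeness was the largest absolute difference over the arrays. After a transcript known only by an Ensembl identifier, the nearest were Trim2 (0.052), Chst2 (0.062), Dusp9 (0.065) and Idi1 (0.073), and 9 probes lay within 0.1. For Npnt probe 1, 726 probes lay within 0.1, the nearest being those of Adamts4 (0.0098), Churc1 (0.012), 2310057M21Rik (0.016), Sec24b (0.017) and Slc38a1 (0.019). With 3 arrays such likeness is a description.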

How the data were processed

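The scanner images were read with Agilent Feature Extraction, which the labels name as version 10. The file headers give 10.5.1.1, and 9.5.3.1 in the case of array 1. From it the authors deposited raw median intensities of spots and of local background in both channels, and a log10 ratio of wildtype over Fgfrl1-/- that the software made from its own background-subtracted, dye-normalized signals. The authors also deposited a log2 ratio table, made with R and Bioconductor. Its direction was taken from comparison with the scanner ratios, turned to Fgfrl1-/- over wildtype. As deposited, the table correlated with these at r = 0.70, 0.72 and 0.71 on arrays 1, 2 and 3. It was thus read as Fgfrl1-/- over wildtype. Its column medians were -0.018, 0 and 0.003, and its centring is otherwise unknown.

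From 45018 spots per array, 1639 control spots were left out after background correction. Median intensities were corrected with limma's normexp (offset 50) and loess-normalized within arrays, spots with an outlier flag were dropped, and spots of a probe were averaged. Log2 ratios were fitted with lmFit (intercept only) and eBayes (limma 3.58.1, R 4.3.3), which pairs the pools of an array, and tested on both sides with adjustment over 41174 probes. Intervals are limma's 95% intervals. The fit was tested on simulated data. The difference from Itga8 was fitted in the same way. No member spot was saturated. The number of arrays limits the precision.

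Gene names and mm8 positions come from the file of array 1, joined to the others by probe. No annotation of mm8 was used, so exons and UTRs were not assigned. Apart from the members, Fgfrl1 and Gdnf, genes were named if a probe of a pathway list passed the test, plus up to 4 more per list with the largest ratio among probes well above background in all pools, and the 5 genes nearest to Itga8 and to Npnt. Itgb3, Vtn and Grip2 were named outside the rule for the pathway lists. Cell type genes were named beside their list. The members and lists were chosen with earlier results of these data known.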

Additional observations from a re-analysis of the deposited data

How the results depend on the processing

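The count of 2 member probes past the test was 2 without background subtraction, with median centring, with outlier spots kept, and in the fit of separate channels with no replicate block. It was 0 with a normexp offset of 0, with the scanner software's ratio, with the deposited log2 table, with a trend and robust variances, and with 1 mean value per slide. Few probes passed at all in these fits: 0 of 41174 with the offset of 0, the scanner software's ratio or the slide means, 36 in the deposited table and 6 with the trend. It was 1 when dim probes were left out (14 member probes tested) and 1 with 1 probe per gene name (7 tested). Leaving out 1 array gave 0 to 7: 0 without array 2 or array 3, when 0 of all probes passed, and 7 without array 1, when 7666 did. The samples of an array are paired by the shared hybridization, and the replicate number as a block is that pairing.

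The count of 14 probes that differ from Itga8 was 8 with the scanner software's ratio and 6 of 6 with 1 probe per gene name, where fewer probes were tested. It was 13 to 14 when 1 array was left out and 10 to 14 otherwise. The slide as a random block was not run, since no correlation within slides could be estimated.

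Direction changed for some values. Grip1 probe 2 was at 0.00068 without background subtraction and at 0.084 with the scanner software's ratio. With that ratio the difference from Itga8 was 0.013 for Itga8 probe 2 and -0.14 for Itga8 probe 3, the latter past the test as reported. With median centring, Itgb1 probe 3 was at 0.013, Fras1 at -0.0046, Frem1 at 0.074 and Grip1 probe 1 at -0.00030, but Itgb1 probe 3 and Frem1 were not well above background in any pool, so their sign carries no direction. When 1 array was left out, Npnt probe 2 ranged from -0.17 to 0.076 and Grip1 probe 3 from -0.084 to 0.26, both turning without array 1. The cause of these changes was not tested.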
